A study of Mus musculus with 12 samples.

Results

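The 2 control arrays of the series, labelled EGFP KD replicate 1 and EGFP KD replicate 2, were described on their own, out of 12 arrays in all. They hold RNA from E14 cells, a male mouse embryonic stem (ES) cell line, 48 hr after lipofection of esiRNAs, pools of short RNAs cut from long double-stranded RNA by an endonuclease, against EGFP. EGFP is a jellyfish protein that mice lack, so this group is the control for knockdown (KD) of a mouse gene, but it is a transfected control and no untransfected cells were used here. The cells grew in serum and LIF on gelatin without a feeder layer, and they are 1 cell line. The labels give the 2 samples as replicates of one condition without saying whether they were separate cultures. The study's methods call its array replicates biological. Each sample was labelled with Cy3 and hybridised to its own 1-colour Agilent 4X44K mouse array, on a different slide for each replicate. Slide and replicate cannot be told apart. No probe on the array was named for EGFP, so the KD itself could not be checked.

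ES cells are derived from the inner cell mass of the blastocyst and can form every tissue of the embryo. Pou5f1 (Oct4), Sox2 and Nanog are the transcription factors at the core of the network that keeps this state, LIF acts through Stat3 to hold it in culture, and genes such as Fgf5, T or Gata6 come on as cells leave it. ES cells also divide quickly, with a short G1 phase, and make much of their energy by glycolysis.

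Values are intensities from the scanner software, divided by the 75th percentile of the same array and put on a log2 scale, so that 0 is the signal at the 75th percentile. This level is called the scaled signal here. The 75th percentile was 2284 on replicate 1 and 1911 on replicate 2. A probe was counted as detected where the software marked it well above background, and saturated where the software marked it so. Of 39429 probes, 31875 were detected on replicate 1 (80.8%) and 36129 on replicate 2 (91.6%), and 31694 on both. Probes were named through their accession, which gave 20659 genes, and the brightest probe stood for a gene. The brightness of a probe depends on its own sequence as well as on its transcript, so levels of different genes are given by class and not as an order of mRNA amounts. With 2 arrays and a single group there is no test, and the spread between the arrays is the only error.

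By the background mark alone, most of the genome looked expressed. Of 20659 genes, 17623 (85.3%) were detected on both arrays, 1731 on replicate 2 only, 64 on replicate 1 only and 1236 (5.98%) on neither. A further 5 genes were detected on both arrays through different probes. But 641 of 1061 olfactory receptor genes (60.4%) were also detected on both, and these receptors are known from the sensory neurons of the nose. Vomeronasal receptors, which sense pheromones, gave 171 of 252, and bitter and sweet taste receptors gave 22 of 38. The mark alone did not separate these receptors from the genes that ES cells are known to use. In the mean of both arrays, olfactory receptors had a median scaled signal of -4.01, a 95th percentile of -0.69 and a maximum of 2.48, for Olfr122. All genes had a median of -1.59.

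A second, stricter reading was therefore added after the values had been seen. A gene was called above the receptor range where its brightest probe exceeded the 95th percentile of the olfactory receptor genes on each array, which was -0.89 on replicate 1 and -0.37 on replicate 2. That held for 7193 genes, 34.8% of those measured. By construction it holds for few olfactory receptors (38 of 1061), and it held for 13 of 252 vomeronasal receptors, 2 of 38 taste receptors and 2 of 60 defensins, peptides of gut and epithelial defence. It is a description of where a probe lies, and a gene below it may still be expressed and read by a dim probe.

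**Figure D1:**
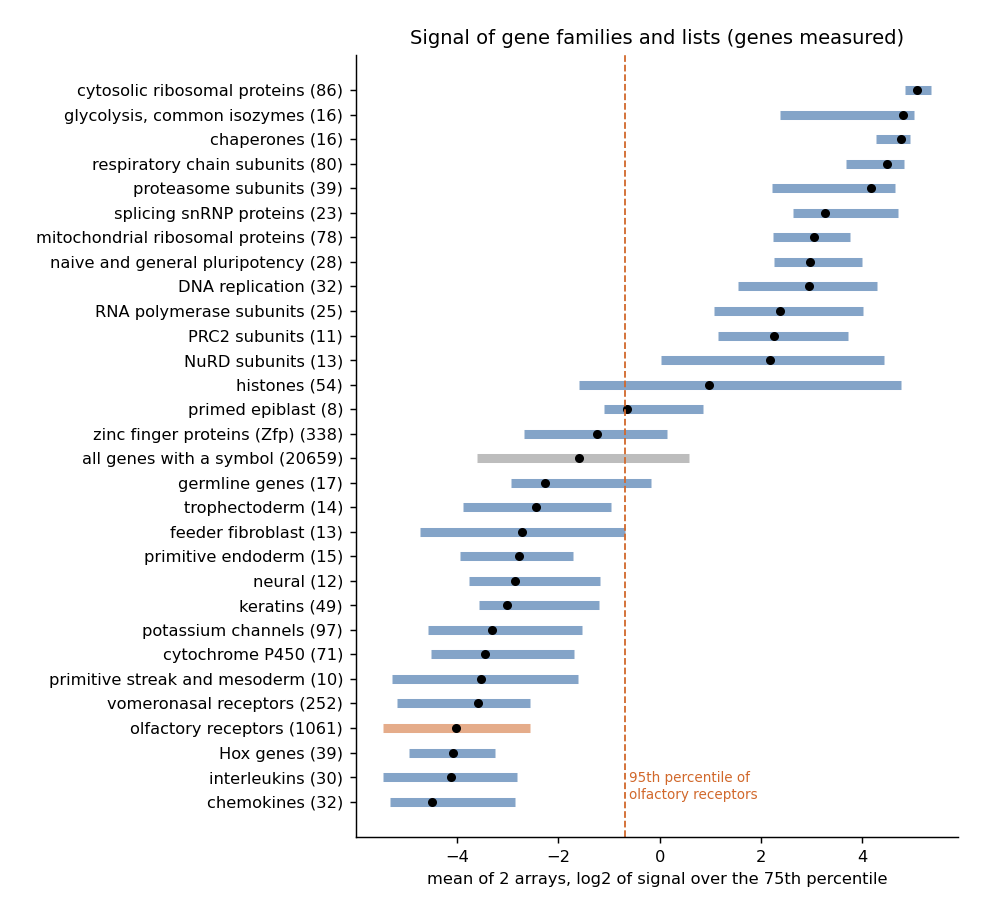
Scaled signal of gene lists and families, with all genes in grey, as the mean of the 2 EGFP KD arrays. Dots are medians over genes, bars run from the lower to the upper quartile, and the number of genes is in brackets. The dashed line is the 95th percentile of the olfactory receptor genes (-0.69), with ribosomal proteins far to its right (median 5.07) and Hox genes to its left (median -4.08).

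The core pluripotency genes did not read alike. Pou5f1 (chromosome 17, 35506032 to 35510777 in GRCm38.p6) gave 4.61 on replicate 1 and 5.10 on replicate 2 and was saturated on both, so its level has only a lower bound. Sox2 (chromosome 3, 34649995 to 34652461) gave 2.41 and 2.32, which is above the receptor range and not saturated. Nanog (chromosome 6, 122707489 to 122714633) gave -4.59 and -4.09. Its single probe, A_55_P2007699, was marked well above background on both arrays and lay close to the median of the olfactory receptors, above 45.3% of them. Of the defining markers of ES cells, then, 2 of 3 were plainly high and the probe for Nanog was dim. Whether that probe reads the Nanog transcript in these cells was not tested.

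The wider network lay above the receptor range. All 28 naive and general pluripotency genes were detected on both arrays and all 28 were above the receptor range, against 34.8% of all genes. Their median scaled signal was 2.97. Esrrb and Zfp42 (Rex1) both gave 4.55 and 4.92, Dppa5a gave 4.79 and 5.04, and L1td1 gave 4.72 and 5.02. These 4 were saturated on both arrays. A further 11 of the 28 lay in the top 10% of detected probes, a class that began at 2.90. Among them Klf2, a Krüppel-like factor of naive cells, gave 4.48 and 4.59, and Utf1, a chromatin factor of undifferentiated cells, gave 5.49, saturated and so a lower bound, on replicate 1 and 5.40, not saturated, on replicate 2. Fgf4, the growth factor by which ES cells signal to themselves, gave 4.04 and 3.93.

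The least bright of the 28 probes were those of Dppa3 and Prdm14. Dppa3 (Stella), which marks germ cells and the most naive fraction of ES cultures, gave 0.50 and 0.12. Prdm14, a repressor of DNA methyltransferase genes, gave 0.40 and 0.71. Both exceeded the receptor range on both arrays. Klf4 gave 2.36 and 2.13, Tbx3 gave 2.40 and 2.12, and Stat3, the effector of LIF, gave 1.90 and 1.91. Of the 23 not saturated on either array, 7 were higher on replicate 2.

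**Figure D2:**
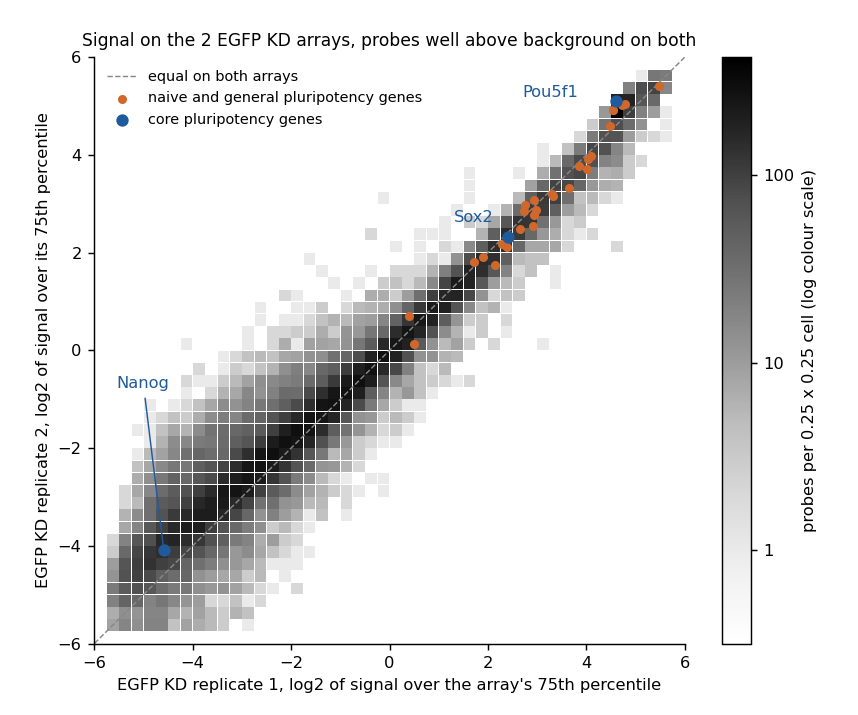
Scaled signal on EGFP KD replicate 1 against replicate 2 for the probes well above background on both arrays, as counts of probes in cells of 0.25 by 0.25 log2 units. Coloured points are the pluripotency genes, with Pou5f1 at the saturated end (4.61 and 5.10), Sox2 at 2.41 and 2.32 and Nanog at -4.59 and -4.09, while the naive and general pluripotency genes lie near the diagonal.

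The growth factor pathways of the culture were read as well. Of 6 LIF pathway genes, 5 were above the receptor range. Lif itself was detected on neither array, at the floor of -5.70 to which lower signals were raised. The floor is the higher of the lowest scaled signals marked well above background on the arrays. Against a looser limit, the 95th percentile of negative control spots, all 6 were above it on both arrays, as were 20074 of 20659 genes. Of 11 Nodal and Activin genes 6 were above the receptor range, of 10 FGF and ERK feedback genes 5, and of 9 BMP and Id genes 4. These are 54.5%, 50% and 44.4%, against 34.8% of all genes, and the lists are small. The BMP and Id group holds the Id factors that BMP induces in serum.

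Genes of the primed epiblast, the state after implantation, were mixed. All 8 were detected on both arrays, 3 were above the receptor range (37.5%, against 34.8% of all genes) and none was saturated. Dusp6, a phosphatase induced by ERK signalling, gave 2.29 and 2.50, Otx2 gave 1.13 and 0.95 and Pou3f1 gave 0.70 and 0.89. Fgf5, the growth factor most used to mark primed cells, gave -5.25 and -4.98, at the low end. Foxd3 (-0.44 and -0.46) exceeded the receptor limit of replicate 1 but not that of replicate 2. Sox3 (-0.95 and -0.75), Lef1 (-1.13 and -1.03) and Zic2 (-1.18 and -1.15) lay just under both limits. The epiblast markers agreed closely between the arrays, the 2 values of each of the 8 lying within 0.27 of each other.

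Markers of the primitive streak and mesoderm were low. None of 10 was above the receptor range, against 34.8% of all genes, and their median was -3.53. T (Brachyury), the T-box factor of the streak, was at the floor on both arrays, and Gsc was detected on neither. The T-box factor Eomes gave -1.29 and -1.32 and Lhx1 gave -1.45 and -1.30. A second Eomes probe was at the floor on replicate 1 and gave -4.09 on replicate 2. Tbx6 gave -2.00 and -0.46, a gap wider than that of any epiblast marker. Mixl1, Mesp1, Evx1, Wnt3 and Msgn1 all lay at or below -1.66 on both arrays. In RNA from a whole culture, fewer cells of a type and less RNA per cell cannot be told apart.

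Primitive endoderm markers fell into a bright pair and a dim remainder. The factors that define this lineage were dim, with Gata4 at -3.33 and -3.30, Gata6 at -3.18 and -2.75 and Sox7 at -4.76 and -4.33. Sox17 gave -1.60 and -0.77, and Pdgfra was detected on replicate 2 only. Of the secreted products of endoderm, Ttr was detected on neither array and Afp on replicate 2 only. The 2 of 15 above the receptor range (13.3%, against 34.8% of all genes) were basement membrane genes. Sparc, a matrix glycoprotein, gave 4.91 and 5.06 and was saturated, and Lama1, a laminin chain, gave 3.07 and 3.28. Col4a1, a type IV collagen chain of the same membrane, gave -2.17 and -2.12.

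Of 14 trophectoderm markers, 3 were above the receptor range (21.4%, against 34.8% of all genes). Tfap2c, which germ cell precursors also use, gave 1.83 and 2.15. Krt18, a keratin of simple epithelia, gave 1.20 and 1.12, while its partner Krt8 gave -1.51 and -1.49. Ascl2 gave 0.90 and 0.87. The lineage's defining factor Cdx2 gave -4.78 and -4.44, and Elf5 and Tpbpa were detected on replicate 2 only. Gata3 (-3.88 and -4.12), Gata2 (-3.41 and -3.31) and Hand1 (-3.25 and -3.48) were dim on both arrays.

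Genes of the 2-cell stage, which a small fraction of ES cells is known to switch on in bursts, split by family. Zfp352 gave 3.25 and 3.51. The Zscan4 probes gave 1.26 and 1.37 for Zscan4f, 0.38 and 0.39 for Zscan4c and -0.35 and 0.14 for Zscan4a, and these near-identical copies cannot be told apart with confidence by short probes. These 4 were above the receptor range, of 10 measured (40%), against 34.8% of all genes. Zfp352 had a second probe, at -4.75 and -3.42. Tcstv1 (-3.55 and -3.31) and Tcstv3 (-3.62 and -3.10) were dim. The Tdpoz genes, a cluster of POZ-domain genes, were dim and differed between the arrays. Tdpoz2 gave -3.83 and -1.33, and Tdpoz1 differed in the opposite direction, at -3.22 and -4.93.

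Other lineages were mostly dim. Of 13 fibroblast genes, which would mark feeder cells, only Thy1 (1.69 and 1.80) was above the receptor range. That is 7.69%, against 34.8% of all genes. Postn and Prrx1 were detected on neither array, and Col1a1, the main collagen of fibroblasts, gave -4.29 and -4.40. Dcn (-0.27 and -0.38) and Col3a1 (-0.92 and -0.30) lay at the limit. The median of the 13 was -2.72, against -1.59 for all genes.

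Of 12 neural genes, Tubb3 (1.12 and 0.89), a neuronal tubulin, and Nes (-0.16 and -0.07), an intermediate filament of progenitors, were above the receptor range. The neural factor Pax6 (-3.77 and -3.21) was dim. Of 11 blood and endothelial genes 3 were above the range (27.3%), against 34.8% of all genes. Kdr, a VEGF receptor, gave 1.26 and 1.56, Cd34 gave -0.57 and -0.11, and Cd3e, a T cell receptor chain, gave 0.25 and 1.68, while the leukocyte gene Ptprc (CD45) gave -3.03 and -1.28. Of 10 muscle genes only Myh6 (0.23 and 0.51) was above it, and Tnnt2 was detected on neither. Of 9 liver and gut genes only Serpina1a (-0.37 and -0.12) was above it, with Alb at -4.81 and -4.17 and Fabp1 detected on neither.

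**Figure D3:**
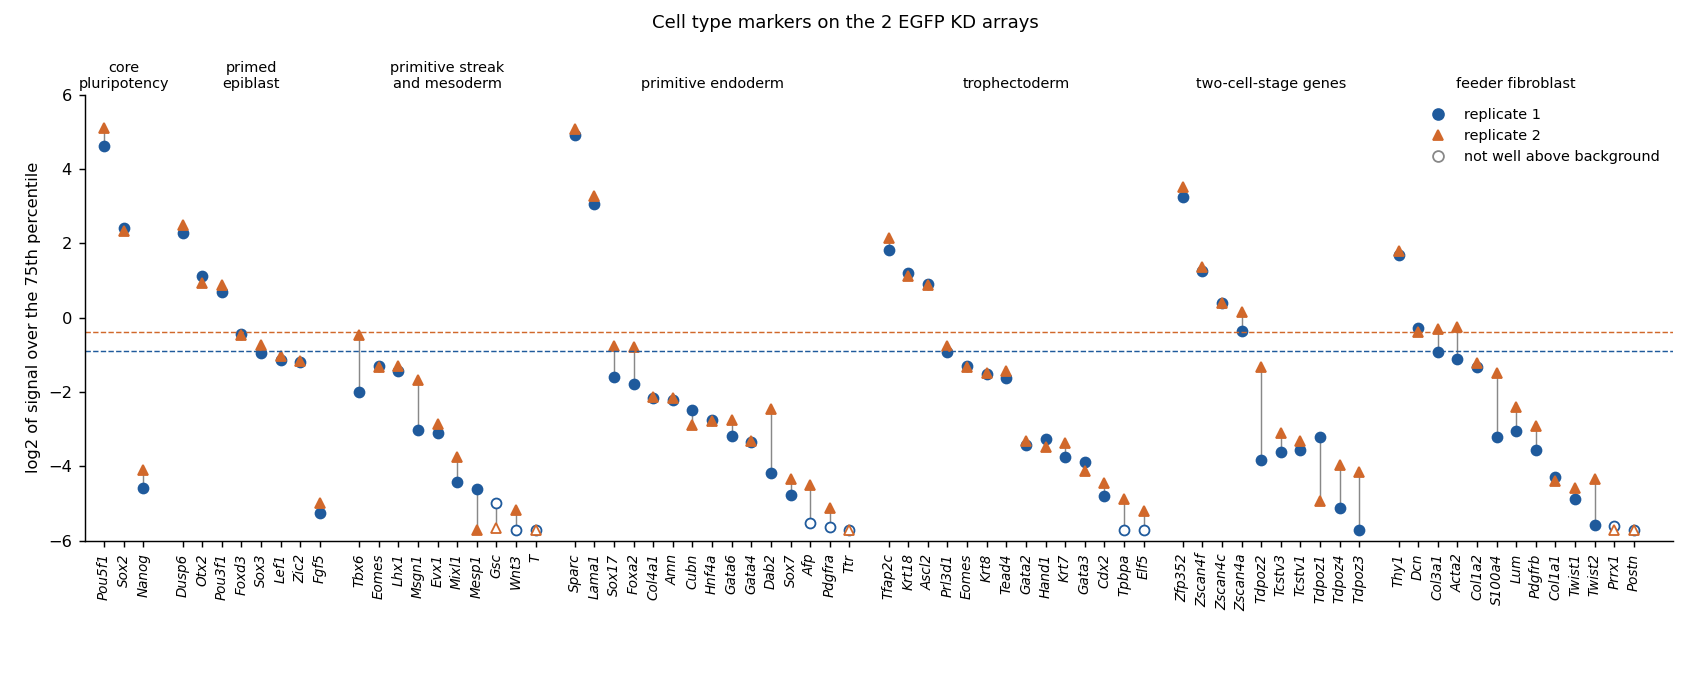
Scaled signal of cell type markers on EGFP KD replicate 1 (circles) and replicate 2 (triangles), with open symbols where a gene was not well above background. Dashed lines are the 95th percentile of olfactory receptor genes on each array (-0.89 and -0.37). Pou5f1 and Sox2 lie far above both lines and Nanog far below, and of the 10 markers of primitive streak and mesoderm none lies above both.

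Germline genes, many of which are known to be held silent by promoter methylation in somatic cells, spanned the range. Of 17, 15 were detected on both arrays (88.2%) and 6 were above the receptor range (35.3%). Both shares were close to those of all genes, 85.3% and 34.8%. Rpl10l gave 4.24 and 4.40 and Tuba3a gave 2.89 and 3.03, and each is a near copy of an abundantly used gene (Rpl10 and other alpha-tubulins), so these values are uncertain. The other 4 were Mael (0.23 and 0.09), Stra8 (0.06 and 0.50), Sohlh2 (-0.13 and -0.20) and Sycp3 (-0.50 and -0.30). Dazl gave -2.42 and -2.47 and Ddx4 (Vasa), the germ cell helicase, gave -2.19 and -2.40. Tdrd1 was detected on neither array.

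The line is male, and of 4 Y-linked genes Eif2s3y (0.56 and 0.79) and Ddx3y (-0.08 and -0.29) were above the receptor range. Uty gave -4.45 and -3.54 and Kdm5d was at the floor on both arrays. Xist, the RNA of X inactivation in female cells, gave -1.35 and -0.45 at one probe and the floor on both arrays at its second probe.

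The 5 genes that the series targets in other arrays were all detected on both control arrays. Mbd3, a methyl-CpG-binding domain protein of the NuRD complex, gave 4.32 and 4.49, and a second probe gave 1.76 and 1.28. Chd4, the ATPase of NuRD, gave 4.12 and 3.97. Tet1, which oxidises methylcytosine, gave 2.13 and 2.00, with a second probe at -0.10 and 0.35. Dnmt1, the maintenance DNA methyltransferase, gave 1.06 and 1.13. Mbd2, which binds methylated CpG sites and belongs to another version of NuRD, gave -0.72 and -0.83, and a second probe gave -0.84 and -1.09. It was the only one of the 5 not above the receptor range on both arrays. The arrays differed by at most 0.17 for these brightest probes.

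The proteins around them were read in the same way. Of 14 genes of DNA methylation and its readers 8 were above the receptor range (57.1%), against 34.8% of all genes. Dnmt3l, the cofactor of de novo methylation, was saturated on both arrays (4.57 and 5.02). Another 3 genes were singled out after their values were seen. Dnmt3b gave 4.65, saturated and so a lower bound, on replicate 1 and 4.71, not saturated, on replicate 2. Other probes of Dnmt3b gave 3.51 and 3.19, and 2.77 and 2.53. Dnmt3a gave -1.61 and -1.55, and Uhrf1, which brings Dnmt1 to replicating DNA, gave 5.10 and 4.95. Of 13 NuRD subunits 10 were above the range (76.9%). In the top 10% lay 6 of the 13, and none was saturated on both arrays. Of all genes, 8.4% were in either class. Hdac1 gave 4.80 on replicate 1, where it was saturated, and 4.74 on replicate 2, where it was not. Other probes of Hdac1 gave 1.77 and 1.14, and 0.49 and 0.38. Hdac2 gave -2.56 and -2.72 at its single probe. Hdac1 and Hdac2 were also chosen after their values were seen. Of 11 PRC2 subunits, the complex that methylates histone H3 at lysine 27, 10 were above the range (90.9%). The exception was Phf1, at -2.84 and -3.01.

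Many genes of protein synthesis and energy supply were read at the bright end. In all, 1736 genes (8.4%) were saturated on both arrays or in the top 10%, of which 382 (1.85% of genes) were saturated. Cytosolic ribosomal proteins accounted for 81 of those 382, out of 86 measured, and their median scaled signal was 5.07. The few not saturated on both were Rps21 (4.62 and 3.26), the retrogene Rpl10l and paralogs. The paralogs were Rpl39l (3.78 and 3.59), Rpl7l1 (1.17 and 0.87) and Rpl3l (-2.81 and -2.34). Rpl3l is known from muscle and was the only member not above the receptor range. Ribosomal proteins of mitochondria were less bright, with 1 of 78 saturated and 45 in the top 10%, and a median of 3.05. Of 19 translation factors 13 were saturated, and the muscle and neuronal elongation factor Eef1a2 was dim (-3.45 and -3.05).

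Energy genes were read as common and tissue-restricted forms. Of 16 common glycolytic genes 9 were saturated and all 16 were above the receptor range, against 1.85% and 34.8% of all genes. Among them were Aldoa (5.26 and 5.12), Pkm (5.54 and 5.48) and Ldha (5.43 and 5.51). Of 14 isozymes listed as tissue-restricted none was saturated, 3 were above the range and 2 of the 14 lay in the top 10%, Ldhb (4.75 and 4.71) among them. Respiratory chain subunits were saturated in 26 of 80, with 42 more in the top 10%. The dim members were forms known from muscle or testis, Cox8b (-4.49 and -3.73), Cox7b2 (-3.36 and -3.25), Cox6a2 (-3.59 and -2.70) and Cox8c (-2.67 and -2.69). Proteasome subunits were saturated in 11 of 39. The exceptions there were Psmb11 of the thymus, which was detected on neither array, Psma8 of the testis (-2.99 and -3.58) and the immunoproteasome subunits Psmb8 (-3.23 and -2.98) and Psmb9 (-1.39 and -1.24).

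Genes of DNA replication and protein folding also lay mostly above the receptor range. Of 32 replication genes 29 were above the receptor range and 3 were saturated, which were Pcna (5.31 and 5.19), the sliding clamp of the fork, Mcm6 (4.58 and 5.08) and Rpa1 (4.55 and 5.01). Of 16 chaperones 8 were saturated and 15 were above the range. Cct6b, a testis form of a chaperonin subunit, gave -0.97 and -0.92. Of 13 cyclins and cyclin-dependent kinases 9 were above the range, with Ccne2 detected on neither array. Ccne1, the cyclin that drives entry into S phase, gave 5.12 and 5.13 at its brighter probe and 1.02 and 0.88 at its other. Of 7 CDK inhibitors, which brake the cycle, 2 were above the range (28.6%), against 34.8% of all genes. All 23 splicing snRNP proteins and 24 of 25 RNA polymerase subunits were above it. Ccne1 was chosen after its values were seen.

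The 10 genes with the highest mean were all saturated and have no order among them. They were Rpl10, Rpsa, Rps9, Rpl26 and Rpl3 of the ribosome, Ncl of the nucleolus, Tuba1c, Snrpg, Endov and Cplx2, with values between 5.51 and 5.60 on each array. Endov, an endonuclease, was read by 1 probe. Cplx2, a complexin of synapses, had 3 other probes, which gave 4.38 and 4.43, 3.14 and 3.25, and -4.00 and -2.17. Housekeeping genes used for normalization were saturated in 8 of 13, Actb (5.05 and 5.23) and Gapdh (5.40 and 5.28) among them, while Hprt gave -2.83 and -2.22.

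Stress programmes were read at different levels. Of all genes, 34.8% were above the receptor range. Of 13 interferon-stimulated genes 3 were above it (23.1%), and their median was -4.43. Of 16 p53 targets 10 were above the range, none saturated, with a median of 1.13. Of 13 Atf4 targets, the amino acid and stress response, 9 were above the range. Asns, asparagine synthetase, was saturated (4.54 and 4.88) and Slc7a11, the cystine transporter, was detected on neither. Of 16 cholesterol synthesis genes 13 and of 13 hypoxia-induced genes 7 were above the range. Immediate early genes, which respond within minutes to stimulation, gave 3 of 10 (30%), close to the share of all genes.

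At the dim end lay the families of differentiated tissues. None of 39 Hox genes, which pattern the body axis, was above the receptor range. Of these, 25 were detected on both arrays (64.1%), 10 on replicate 2 only and 4 on neither. Among all genes the shares were 85.3%, 8.38% and 5.98%. The median of the Hox genes was -4.08. All 39 lay above the 95th percentile of negative control spots on both arrays, as did 20074 of 20659 genes. Of 30 interleukins none was above the range, of 32 chemokines 1, of 19 GABA-A receptor subunits 1, of 71 cytochrome P450 genes 8 and of 97 potassium channels 11. Keratins gave 11 of 49. Of 19 Wnt ligands 3 and of 22 FGF ligands 4 were above it. Zinc finger genes of the Zfp series, many of which repress retroelements, gave 112 of 338 (33.1%), close to the 34.8% of all genes. Histones were the most spread, with 14 of 54 saturated and H1f3 detected on neither array, and copies of histone genes share sequence that a probe may not tell apart.

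Genes at the bright and the dim end differed in their promoters, a feature that was not used to class them. The window from 250 bases before to 50 bases after the first annotated start was taken from RefSeq for GRCm38.p6, which held one for 16373 of the 20659 genes. A window was called CpG-rich where its ratio of observed to expected CpG was at least 0.6 and its GC content at least 0.5 as a fraction. Most vertebrate promoters of this kind belong to widely used genes, and CpG is the dinucleotide that Dnmt1 methylates. Olfactory receptors had no CpG-rich window (0 of 905), so they and the vomeronasal receptors were left out of the following shares. CpG-rich windows were found for 70.6% of 303 saturated genes, 77.5% of 1120 genes in the top 10%, 56.0% of 10930 in the middle and 32.2% of 921 in the lowest 10% of detected genes. Among 766 genes detected on neither array the share was 20.6%, and among all 15239 it was 52.1%.

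The letters TATAAA, searched on both strands, ran the other way. They were in 7.68% of windows in the top 10% and in 19.6% of those of genes on neither array, with 10.7% over all 15239. They were in 11.2% of windows of saturated genes, close to that level. GGGCGG, searched likewise, was in 67.8% of windows of the top 10% and 26.6% of those on neither array, with 52.6% over all of them, and it contains a CpG itself. CCAAT was in 45.5% of windows of saturated genes, 39.6% of those of the top 10%, 35.7% of those of the lowest 10% and 39.2% of those on neither array, with 38.5% over all of them. Over all 32851 windows of the RefSeq table, TATAAA was in 13.6%, GGGCGG in 35.7% and CCAAT in 37.4%.

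**Figure D4:**
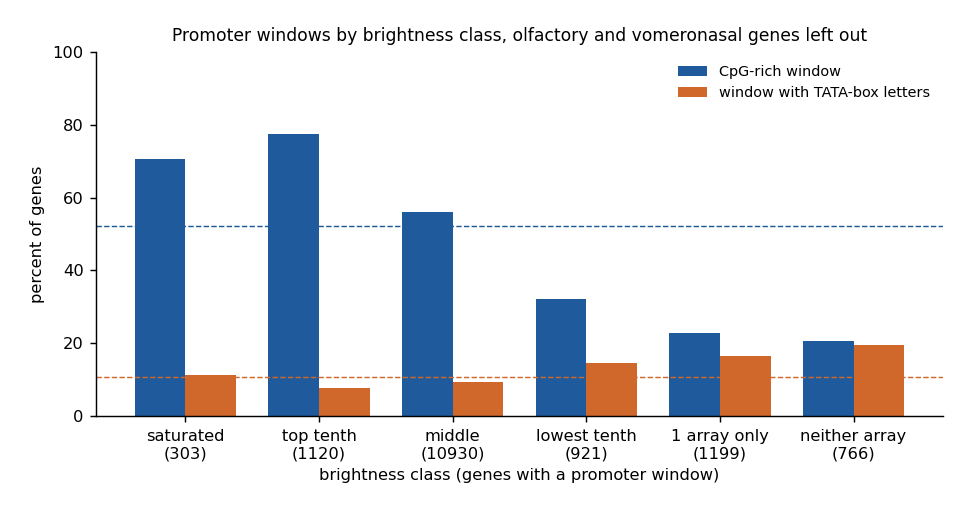
Percent of genes in each brightness class of the EGFP KD arrays whose promoter window was CpG-rich (blue) or held TATAAA on either strand (orange), with the number of genes in brackets and all genes as dashed lines (52.1% and 10.7%). The blue bars fall from 77.5% in the top 10% to 20.6% for genes detected on neither array, and the orange bars are highest, at 19.6%, on neither array.

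Seen from the promoter, 51.9% of 7936 genes with a CpG-rich window and 22.7% of 7303 other genes were above the receptor range, and the median scaled signals were -0.18 and -2.49. The relation had many exceptions, since 3818 genes with a CpG-rich window (48.1%) were not above the range. Pluripotency genes were not all of the CpG-rich kind, with 43.8% of the 16 naive and general pluripotency genes that had a window, whereas 80% of 65 cytosolic ribosomal protein genes and 80% of 15 germline genes were.

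The 5 stretches shown here put these cases side by side, each the 250 bases before the start on the gene's strand in GRCm38.p6, with every CG in capitals. Rps9 (saturated) and Dazl (dim) are both CpG-rich, Pou5f1 (saturated) and Afp (dim) are not, and Olfr122 is the brightest olfactory receptor. They cover chr7:3703791-3704040, chr17:35505782-35506031, chr17:50293621-50293870, chr5:90490464-90490713 and chr17:37768392-37768641 in the order printed, Dazl on the minus strand and the others on the plus strand.
Rps9: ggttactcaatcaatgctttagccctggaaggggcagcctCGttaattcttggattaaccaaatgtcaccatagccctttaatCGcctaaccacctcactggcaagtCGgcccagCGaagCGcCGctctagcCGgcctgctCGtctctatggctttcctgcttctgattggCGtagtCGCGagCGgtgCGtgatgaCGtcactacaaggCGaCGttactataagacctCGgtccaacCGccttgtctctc
Pou5f1: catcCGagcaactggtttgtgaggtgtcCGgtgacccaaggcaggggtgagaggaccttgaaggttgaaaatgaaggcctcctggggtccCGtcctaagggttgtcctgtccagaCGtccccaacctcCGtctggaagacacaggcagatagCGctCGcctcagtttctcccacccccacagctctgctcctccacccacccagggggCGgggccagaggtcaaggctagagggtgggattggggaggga
Dazl: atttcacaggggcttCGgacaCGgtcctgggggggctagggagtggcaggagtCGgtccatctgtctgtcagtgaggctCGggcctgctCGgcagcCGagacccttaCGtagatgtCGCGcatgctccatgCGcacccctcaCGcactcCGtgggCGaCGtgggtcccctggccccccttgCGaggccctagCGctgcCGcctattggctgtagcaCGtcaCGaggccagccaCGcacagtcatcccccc
Afp: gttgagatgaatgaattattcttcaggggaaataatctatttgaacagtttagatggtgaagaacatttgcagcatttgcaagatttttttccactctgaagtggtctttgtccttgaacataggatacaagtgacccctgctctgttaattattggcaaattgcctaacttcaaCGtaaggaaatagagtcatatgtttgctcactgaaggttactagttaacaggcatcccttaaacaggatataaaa
Olfr122: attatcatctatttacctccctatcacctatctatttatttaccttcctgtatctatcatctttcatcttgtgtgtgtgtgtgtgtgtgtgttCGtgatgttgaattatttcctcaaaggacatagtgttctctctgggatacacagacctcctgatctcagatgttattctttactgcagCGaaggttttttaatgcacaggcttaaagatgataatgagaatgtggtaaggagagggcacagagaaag
Rps9 was saturated (5.58 and 5.56) and Dazl was not above the receptor range (-2.42 and -2.47). Yet the stretch of Rps9 held 18 CpG sites and that of Dazl 20. That of Pou5f1 held 8 CpG sites and a GGGCGG, with an observed to expected ratio of 0.374 over its window. That of Afp held 1 CpG site and has TATAAA close to its end, and that of Olfr122 held 2.

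The arrays agreed closely for bright probes and less well for dim ones. Over the 31694 probes detected on both arrays, Pearson's r was 0.974 and Spearman's rho 0.963, across probes, which are not independent replicates. The difference of replicate 2 minus replicate 1 had a median of 0.13 and an SD of 0.62, and 3585 probes (11.3%) were over 1 log2 unit apart. Of these, 2903 (9.16% of all) were higher on replicate 2 and 682 (2.15%) on replicate 1. The figures of this paragraph include saturated probes unless said otherwise. With those left out, 30389 probes gave an r of 0.968 and a rho of 0.958. Their difference had an SD of 0.63, and 11.8% were over 1 unit apart. Above the median signal r was 0.975, the SD of the difference 0.44 and the share over 1 unit apart 4.39%. Below the median, r was 0.772, the SD 0.70 and the share 18.2%.

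The difference moved with brightness. In the dimmest 10% of the detected probes, between -5.69 and -4.04, the median difference was 0.47, and in the next it was 0.49. It was 0.21 in the fifth bin of 10 and -0.12 for probes between 1.17 and 2.90. After a loess fit of the difference on brightness the medians of these bins lay between -0.014 and 0.024, and 8.89% of probes were over 1 unit apart. Dim families read higher on replicate 2, Hox genes by a median of 0.72, olfactory receptors by 0.61 and vomeronasal receptors by 0.55, while replication genes read lower (-0.16) and all genes differed by 0.07. After loess the medians of Hox genes and olfactory receptors were 0.23 and 0.27, and after quantile normalization between the arrays they were 0.031 and 0.16, so most of the Hox difference is lost under that scaling.

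The background was higher on replicate 1 than on replicate 2. On replicate 1 the 153 negative control spots had a mean net signal of 46.4 with an SD of 14.2, and on replicate 2 of 32.3 with an SD of 4.64. The spatial background fitted by the software averaged 41.5 on replicate 1 and 11.9 on replicate 2, and 3 of 3 negative control metrics lay outside the software's own range on replicate 1 and 0 of 3 on replicate 2. After subtraction 5.23% of spots were below 0 on replicate 1 and 1.37% on replicate 2. The part of these values in the differences between the arrays was not tested.

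Spike-in RNAs added to each sample gave another view. Of 10 kinds, 3 were saturated and the other 7 were all higher on replicate 2, by 0.42 to 0.97, with a median of 0.56. They ran from -4.85 to 3.09 on replicate 1 and from -4.00 to 3.50 on replicate 2, so at equal brightness they differed more than the genes did. The slope of signal on amount that the software fitted was 1.04 on replicate 1 and 1.02 on replicate 2. Saturated genes give no measure of agreement, since their levels are lower bounds. Equal signals divided by the 2 different percentiles would read higher on replicate 2 by 0.26. The 1093 probes saturated on both arrays had a median difference of 0.26 with an SD of 0.15. Their signals did not share 1 ceiling, being 53395 for a Gapdh probe and 109191 for Rps9 on replicate 1. The part of the percentiles in their differences was not tested.

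**Figure D5:**
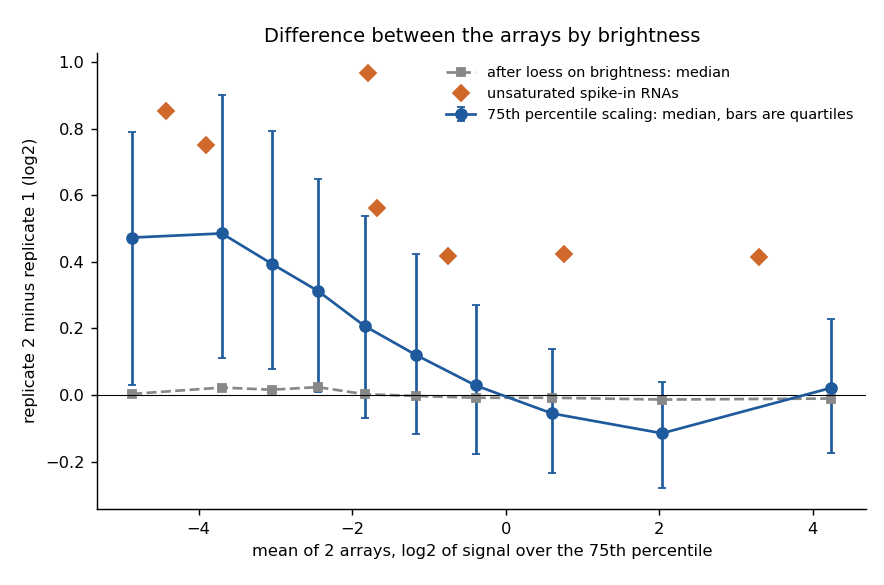
Difference of replicate 2 minus replicate 1 (log2) against brightness, for the detected probes in 10 bins of equal number (blue, median with quartiles), the same after loess (grey) and the 7 unsaturated spike-in RNAs (orange). The blue medians fall from 0.47 at the dim end to -0.12 and return to 0.02 in the brightest bin, and the spike-ins lie between 0.42 and 0.97.

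Spots of the same probe differed within an array too. On each array 343 unsaturated detected probes were printed repeatedly, most of them 10 times, and spots of the same probe had a pooled SD of 0.46 on replicate 1 and 0.38 on replicate 2. The means of these probes over their spots differed between the arrays by an SD of 0.27 per array, which is not a like quantity, since the first SDs are of single spots. Different probes for the same gene disagreed more than the arrays did. Among 3459 genes with 2 unsaturated detected probes the median gap between the probes was 1.55, and 21.4% of the pairs were over 3 log2 units apart, while the median difference between the arrays for the same probes was 0.25 in size. Cdk1, the kinase that drives mitosis and a gene chosen after its values were seen, had probes at 1.29 and -0.10, at -0.56 and 0.61, and at -4.95 and -4.43, so that its 2 brighter probes moved in opposite directions between the arrays.

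A few genes differed far more than the rest. Among unsaturated genes detected on both arrays, the 5 highest on replicate 2 were Tdpoz9 (-4.05 and 0.01), C1d (-4.14 and -0.56), Serpinb11 (-3.92 and -0.35), Gpr37l1 (-1.58 and 1.97) and Cfap299 (-5.13 and -1.60). Tdpoz9 has a second probe, which was at the floor on both arrays. The 5 highest on replicate 1 were Gm11468 (-1.97 and -4.99), Syt10 (3.18 and 0.22), Dusp8 (-0.13 and -2.89), Ankrd1 (-2.85 and -5.45) and Fa2h (-2.86 and -5.45). Syt10, a synaptotagmin, exceeded the limit of the top 10% on replicate 1 and differed by -2.96 on replicate 2. These values rest on 1 array each and have no further replicate check.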

How the data were processed

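Total RNA of the 2 EGFP KD samples was labelled with Cy3 and hybridised to Agilent 4X44K arrays, and the authors deposited the output of Agilent Feature Extraction 10.7.1.1, whose processed intensity has had a background removed within each array and nothing done between arrays. The flags for signal well above background, saturation and outliers were used as deposited. From 43020 spots per array, those flagged as outliers were left out (164 and 117), the signal was scaled to the 75th percentile of its own array, raised to a floor of 0.0192 and put on a log2 scale, and spots of a probe were averaged. Accessions were named through RefSeq's genes for GRCm38.p6, and 71.4% of spots found a symbol. A gene was not detected only if all its probes were not. The 5 targeted genes, core and cell type markers, saturated or undetected members of other lists (at most 4 each), ends of families, the 10 genes with the highest mean and the 5 largest differences each way were named. The 38 lists, 27 families and named members were chosen with earlier results of these data known. Python 3.11.15 was used, and R 4.3.3 with limma 3.58.1 for normexp. The comparison of arrays was tested on simulated data with the same noise at every brightness and a straight-line tilt. In the real arrays the spread was wider for dim probes, so that test does not cover them. Alternatives were other detection marks, scalings, background correction, class widths and each array alone. Thresholds from receptor genes and the choices of promoter windows were added after seeing the data. The other 10 arrays were not used, nor were the authors' tables. Only 2 arrays limit the precision of every value. Some genes are not reported here.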

Additional observations from a re-analysis of the deposited data

How the results depend on the processing

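With 2 arrays of a single group there is no test, and only sizes can be compared. No paired analysis was possible because the arrays form 1 group and the results come from no test. The count of genes detected on both arrays (17623) lay between 16485 and 20074 under the other marks, with outlier spots kept and when all probes of a gene were required, but was 7193 and 4730 above the 95th and 99th percentile of olfactory receptors and 6768 above the 95th of vomeronasal receptors. Leaving out 1 array gave 17692 to 19359. Genes on neither array (1236) were 360 by the software's other mark for significance, 121 and 241 above the 95th and 99th percentile of negative control spots, and 1300 to 2967 on 1 array alone, the larger without replicate 2. The top class (1736 genes) held 654 as a top 5% and 4079 as a top 20%, and 1718 to 2085 with an array left out. Of its members, 99.9% kept their place under quantile normalization and 93.0% under normexp, and with the mean of all probes of a gene the class held 1327 genes, 76.4% of the reported ones. The median difference of replicate 2 minus replicate 1 (0.13) was -0.052 after quantile normalization, -0.19 after median scaling and -0.00057 after loess, so its sign depends on the scaling. That of all genes was -0.050 after quantile normalization and -0.016 after loess, and that of pluripotency genes (-0.12) was 0.045 after quantile normalization. Probes over 1 unit apart (3585) were 515 after normexp and 5568 without the filter on dim probes. Pearson's r stayed between 0.968 and 0.985. The cause of these shifts was not tested, beyond what the settings themselves change. Detection of 42 of 65 lists moved by over 1.5 times above the receptor range, and 10 changed sides of the share of all genes. Above the 95th percentile of negative control spots 5 of 65 moved that far and 13 changed sides, Hox genes going from 25 to 39 detected of 39. By the software's other mark 1 moved and 10 changed sides, without replicate 1 it was 1 and 7, and without replicate 2 it was 0 and 1. The median difference of Hox genes (0.72) was 0.23 after loess and 0.031 after quantile normalization, and that of olfactory receptors (0.61) was 0.27 and 0.16.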

Other observations

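Of the 1093 probes saturated on both arrays, 597 (54.6%) had an accession without a symbol in the gene table, although 69.1% of all probes had one. Of these 597, 166 carried a design name starting with NAP and 111 an Ensembl transcript, and which genes they read was not examined. Of the 382 genes with a saturated probe, 200 had several probes. In 144 of the 200 another probe was not saturated, and in 8 of the 200 another probe was not detected on both arrays, so the class of a gene often rests on which probe stands for it. The lists and families described here hold 193 of the 382 saturated genes (50.5%).

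In 4 bands of rows the median difference between the arrays was 0.12, 0.17, 0.13 and 0.01, and in 4 bands of columns it lay between 0.09 and 0.17, over unsaturated probes detected on both arrays. Of the 153 negative control spots, 3 were marked well above background on replicate 1 and 0 on replicate 2, the array on which more probes were detected.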
